A study of Bos taurus with 24 samples.

Results

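The genes described are 60 genes that drive and police the cell division cycle, listed by symbol. They comprise 16 genes of G1 phase (the cyclins and kinases that start a cycle and the RB-E2F genes they act on), 17 genes that mark and license replication origins (9 of origin recognition and loading and 8 of the MCM helicase and its activation) and 27 genes of mitosis (9 mitotic cyclins and entry regulators, 9 mitotic kinases, spindle and chromosome proteins, and 9 genes of the kinetochore and spindle checkpoint). The counts cover 24621 genes, and 59 of the 60 were found among them. Of these, 57 were listed under their own symbol and 2 under an older one, ORC5 as ORC5L and CDC45 as CDC45L, while CENPA was not analysed here. Genes were listed without coordinates, and no position is given.

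RNA was sequenced from 24 single early bovine blastocysts of quality 1, each embryo being one replicate, to compare embryos produced in vitro with embryos derived in vivo. The 8 in vivo embryos (5 male and 3 female, named A) were flushed from the uterus of superovulated Holstein cows 7 days after insemination. The 8 serum embryos (3 male and 5 female, named B) came from oocytes matured with 20% fetal bovine serum (FBS) and were cultured in SOF medium with 5% FBS, and the 8 serum-free embryos (5 male and 3 female, named C) came from oocytes matured with 20 ng per mL EGF and were cultured in SOF with 0.4% serum albumin, insulin, transferrin and selenium. In vitro embryos were collected between day 6 and day 7 from several experiments, and the same Holstein bull sired all 3 groups. The labels do not assign embryos to a cow, an in vitro experiment or a sequencing lane, which leaves no values within a cow, experiment or lane and means that these cannot be told apart from culture.

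A cell enters the cycle when D-type cyclins bound to CDK4 or CDK6, followed by E-type cyclins bound to CDK2, phosphorylate RB and its relatives and release E2F transcription factors. In late mitosis and G1 the origin recognition complex, CDC6 and CDT1 load the ring-shaped MCM helicase on origins, a step called licensing, and in S phase CDC45 joins the helicase to unwind DNA. Cyclin A and cyclin B bound to CDK1 then start mitosis, Polo and Aurora kinases build the spindle, and the spindle checkpoint delays anaphase until every kinetochore is attached. Cleavage divisions of the early embryo run quickly on maternal stores, and by the blastocyst stage the embryo transcribes its own cell cycle genes.

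The embryos held between 3253051 and 9000447 exon counts. Embryos B2 and B5 stood apart from the other serum embryos: the median correlation of B2 with its own culture was 0.754, against 0.828 or more in all other embryos, and B5 had the largest total with the fewest genes detected, 11735. The comparisons of serum embryos over both sexes were therefore repeated without these 2 embryos, an alternative chosen after seeing the data, and values are given where a call or a pass was lost. Markers of trophectoderm, the outer epithelium of the blastocyst, moved with culture. The summed level of 7 markers (CDX2, GATA2, GATA3, TFAP2C, TEAD4, KRT8 and KRT18) was between 7486 and 14698 CPM (counts scaled to a common library size, after TMM normalization) in in vivo embryos, between 5009 and 27964 in serum-free embryos and between 316 and 5158 in serum embryos, and was lowest in B2, B7 and B5. The keratins KRT8 and KRT18 had medians of 8646 and 1792 CPM in vivo and of 739 and 180.3 CPM in serum, GATA2 and GATA3 also fell in serum (log2 fold changes -1.98 and -1.88), and TFAP2C and TEAD4 did not pass (0.32 and 0.71). CDX2 was at or below 2.46 CPM in every embryo. The sum of 4 inner cell mass markers (POU5F1, NANOG, SOX2 and DPPA3) overlapped between the cultures while its genes did not move together: SOX2 was higher in serum than in vivo (log2 fold change 1.25, adjusted p = 0.0271), and POU5F1 had a value of -0.55 (adjusted p = 0.0979). This sum was at 543 to 807 CPM in vivo, 453 to 960.1 CPM in serum and 467 to 746 CPM serum-free. Over 6 primitive endoderm markers, with SOX17 at or near 0, the sum ranged from 342 to 599 CPM in vivo, from 128 to 411 CPM serum-free and from 26.7 to 234 CPM in serum. It was carried by PDGFRA (median 471 CPM in vivo), which fell in serum (log2 fold change -2.04) and serum-free (-1.01), while GATA6 did not pass in either (0.16 and -0.21). Oocyte markers summed to at most 149 CPM (B2) and cumulus and granulosa markers to at most 51.9 CPM in any embryo. The part of these marker differences in the results that follow was not tested, and in a whole embryo fewer cells of a type cannot be told apart from less RNA per cell.

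Between serum and in vivo embryos, the cell cycle genes moved in both directions. Of the 51 members with enough counts to be tested, 5 were called, a call requiring both a fold change of 2 or more and an adjusted p-value under 0.05. AURKA and CDC25A were higher in serum embryos, and CCND2, PKMYT1 and CDC45 were lower. This is 9.80% of the members tested, against 13.8% of all 7339 genes tested (1011 genes, 6.43% higher and 7.34% lower). With the fold change left aside, 10 members passed the adjusted p-value in the higher direction and 6 in the lower, 31.4% of the members against 28.3% of all genes (14.8% higher and 13.4% lower), so the share that moved was close to that of genes in general. The median log2 fold change of the members tested was 0.20, with 30 higher and 21 lower, against 0.01 over all genes. To be tested, a gene needed 15 counts in each embryo of one group or the other. Of the 51 members, 43 met this limit in both groups, among them 2 of the 5 called, AURKA and CDC25A. Of all 5743 genes that met it in both groups, 9.47% were called (256 genes higher and 288 lower). CCND2, CDC45, PKMYT1, MCM2, ORC2 and RBL1 met it only through the in vivo embryos, so that their lower values in serum were in part chosen by the limit, and CCNE1 and CDC25B met it only through the serum embryos. The 8 members not tested were CCND1, CCND3, CDK6, E2F1, E2F3, RB1, CDKN2C and CDT1. Without B2 and B5, 4 members were called, CDC45 falling short of the fold limit, and 14 passed at any fold. Of all 7484 genes tested in that fit, 852 were called. The median log2 fold change of the members was then 0.14, against 0.02 over all genes. Leaving out B5 or B7 alone gave 3 called members.

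**Figure D1:**
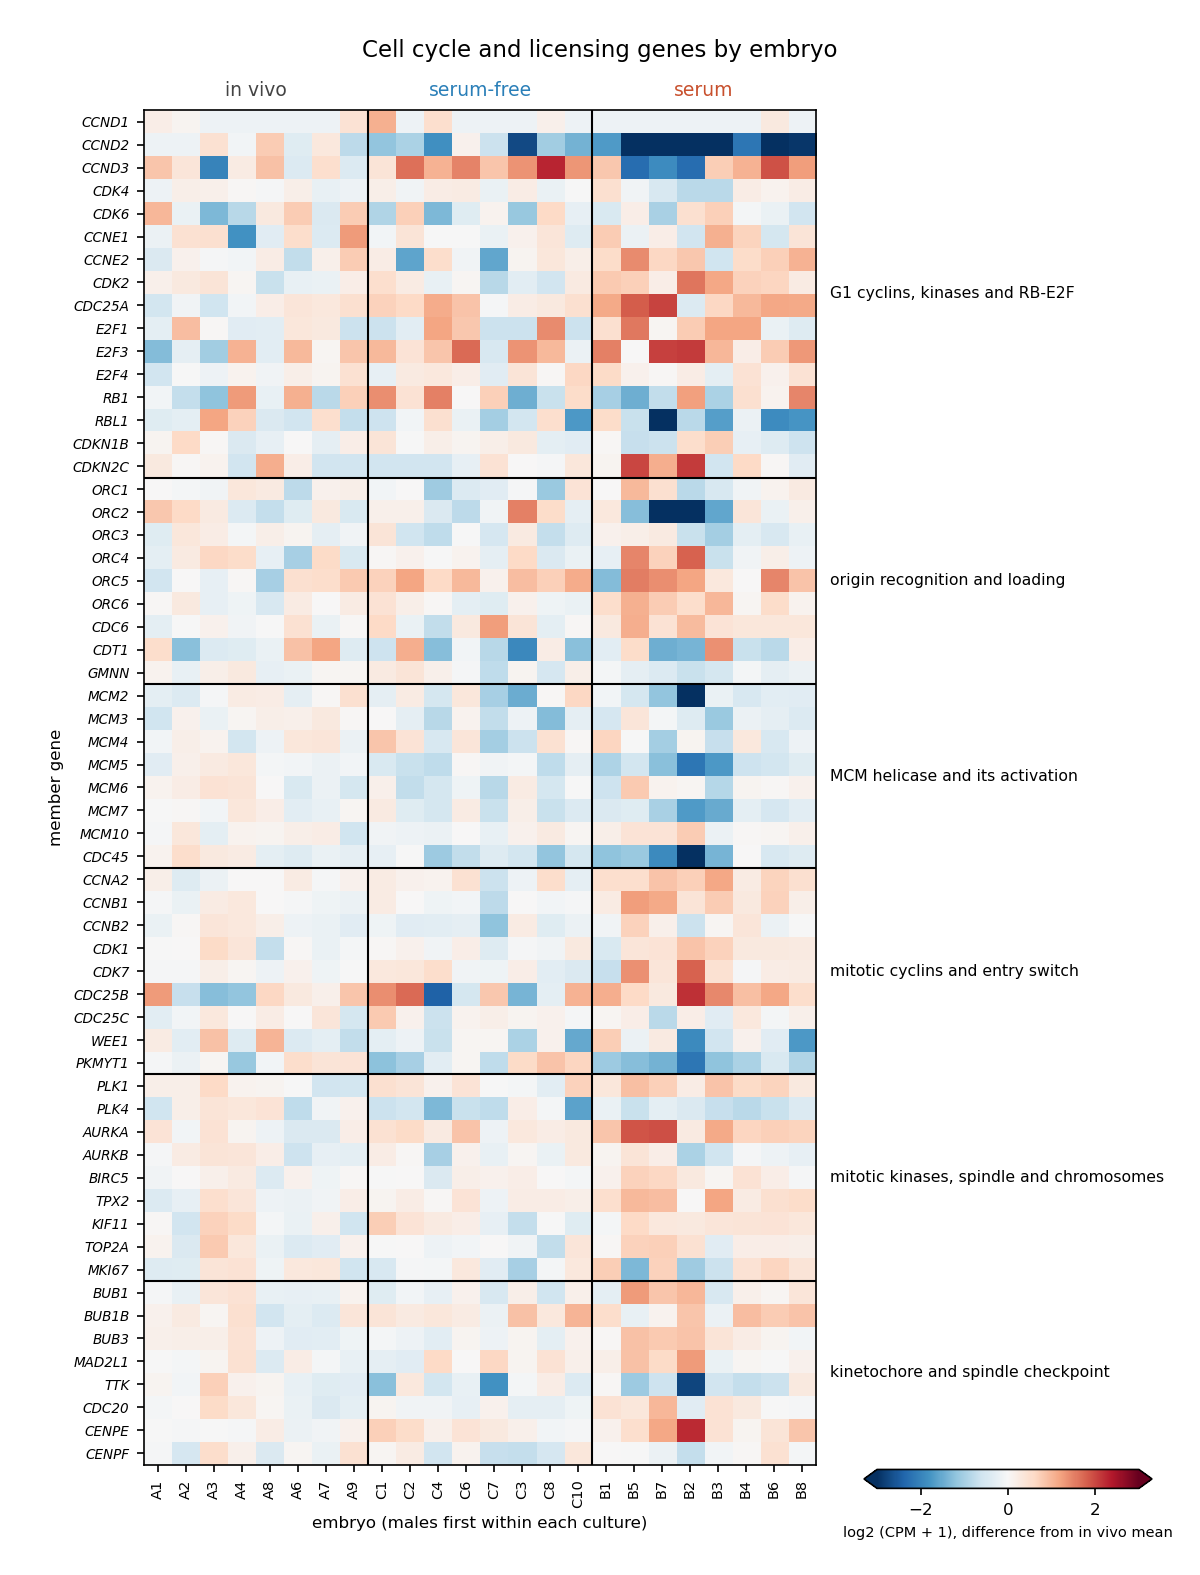
Level of the 59 members (rows, grouped by role) in each of the 24 embryos (columns), as log2 of CPM plus 1, minus the mean of the in vivo embryos. Red is higher and blue lower than that mean, and colours end at a difference of 3. In the serum columns CCND2 is dark blue, MCM2, MCM5 and MCM7 are below the in vivo median in all 8 embryos, as are PKMYT1 and PLK4, while CCNA2, CCNB1 and TPX2 are above it in all 8, and MCM6 and MCM10 lie above it in 5.

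**Figure D2:**
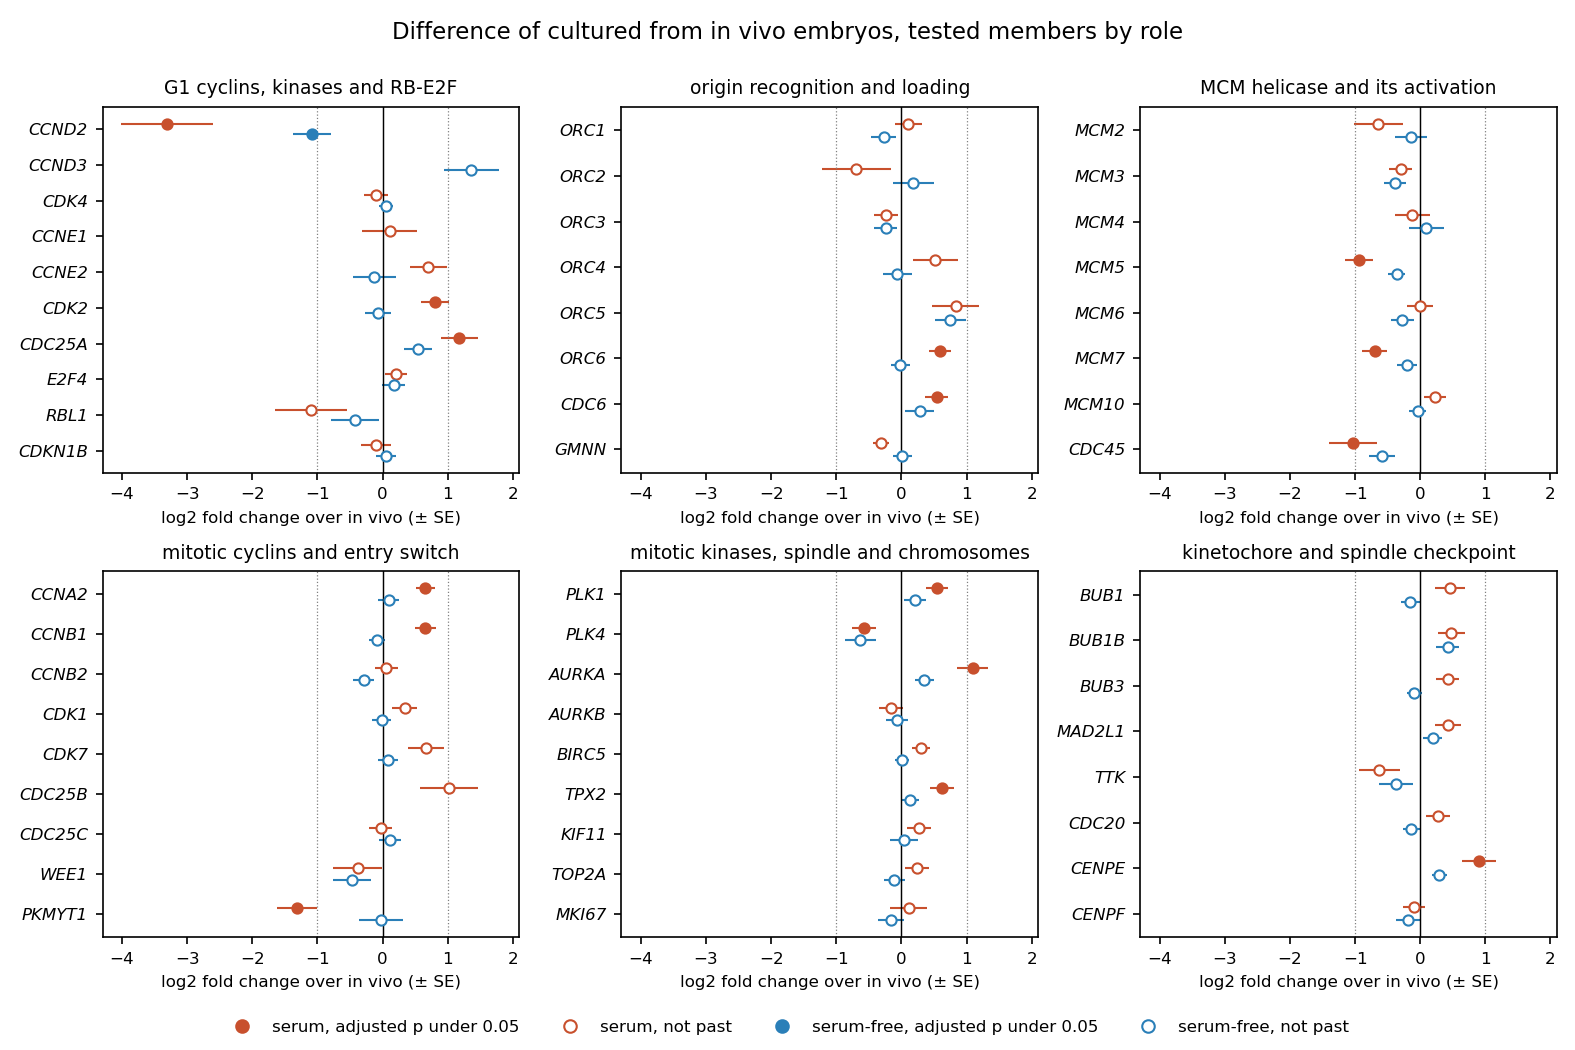
Log2 fold change over in vivo embryos of the tested members, by role, in serum embryos (orange) and serum-free embryos (blue), with bars of 1 approximate SE. Filled points passed an adjusted p-value of 0.05, and dotted lines mark a fold change of 2. Both contrasts share the same 8 in vivo embryos, and CCND2 is the member with a filled point in both.

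Among G1 genes, CCND2 had the largest difference of any member. CCND2 encodes a D-type cyclin, which activates CDK4 and CDK6 in response to growth signals. Its level was between 139 and 407 CPM in the in vivo embryos (median 223), between 36.1 and 260.5 CPM in the serum-free embryos (median 110.3) and between 0 and 72.8 CPM in the serum embryos (median 21.4). Every serum embryo lay below every in vivo embryo, while serum-free embryos overlapped with both. Within serum the level ran from 72.8 CPM in B1 down to 0.23 CPM in B5 and 0 in B2, where no count allows up to 0.698 CPM (3 counts). The log2 fold change was -3.32 ± 0.71 (approximate SE, adjusted p = 0.00248), or 9.96-fold lower. Without B2 and B5 it was -2.86 (adjusted p = 0.000101). The 3 serum embryos with the least CCND2, B2, B5 and B7, were also those with the lowest trophectoderm marker sums.

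CCND1 and CDK6 were too low to test, with at most 7 and 17 counts in any embryo. CCND3, the remaining D-type cyclin, was between 0.198 and 7.92 CPM in vivo and between 0 and 17.2 CPM in serum, and was not tested in that comparison. CDK4, the catalytic partner of D-type cyclins, had the smallest difference of the G1 genes, with a median of 127 CPM in vivo and 126 CPM in serum (log2 fold change -0.10 ± 0.18, adjusted p = 0.70). The spread of CDK4 between serum embryos, 71.9 to 176 CPM, was wider than the 109 to 144 CPM between in vivo embryos.

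CDC25A, the phosphatase that removes inhibitory phosphates from CDK2 and CDK1, was higher in serum. It was between 17.4 and 38.3 CPM in vivo (median 28.3) and between 20.0 and 114 CPM in serum (median 60.5). Apart from B2, at 20.0 CPM, every serum embryo exceeded the highest in vivo embryo. On the log2 scale it was higher by 1.18 ± 0.28 (adjusted p = 0.00528). CDK2, which with cyclin E and cyclin A drives S phase, was between 32.7 and 68.8 CPM in vivo and between 60.3 and 163 CPM in serum, where 6 of 8 embryos lay above all in vivo embryos. Its log2 fold change of 0.80 ± 0.21 (adjusted p = 0.00994) passed without reaching 2-fold. The other G1 genes tested did not pass: CCNE2, a cyclin partner of CDK2, had a log2 fold change of 0.70 ± 0.28 (adjusted p = 0.0676), and CCNE1, E2F4 and the CDK inhibitor gene CDKN1B lay between -0.10 and 0.20. RBL1, an RB relative, had a median of 10.1 CPM in vivo and 5.19 CPM in serum (adjusted p = 0.139). The 9 G1 genes tested thus had 2 that rose, 1 that fell and 6 that did not pass. E2F1, E2F3, RB1 and CDKN2C had at most 51 counts in any embryo and were not tested.

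**Figure D3:**
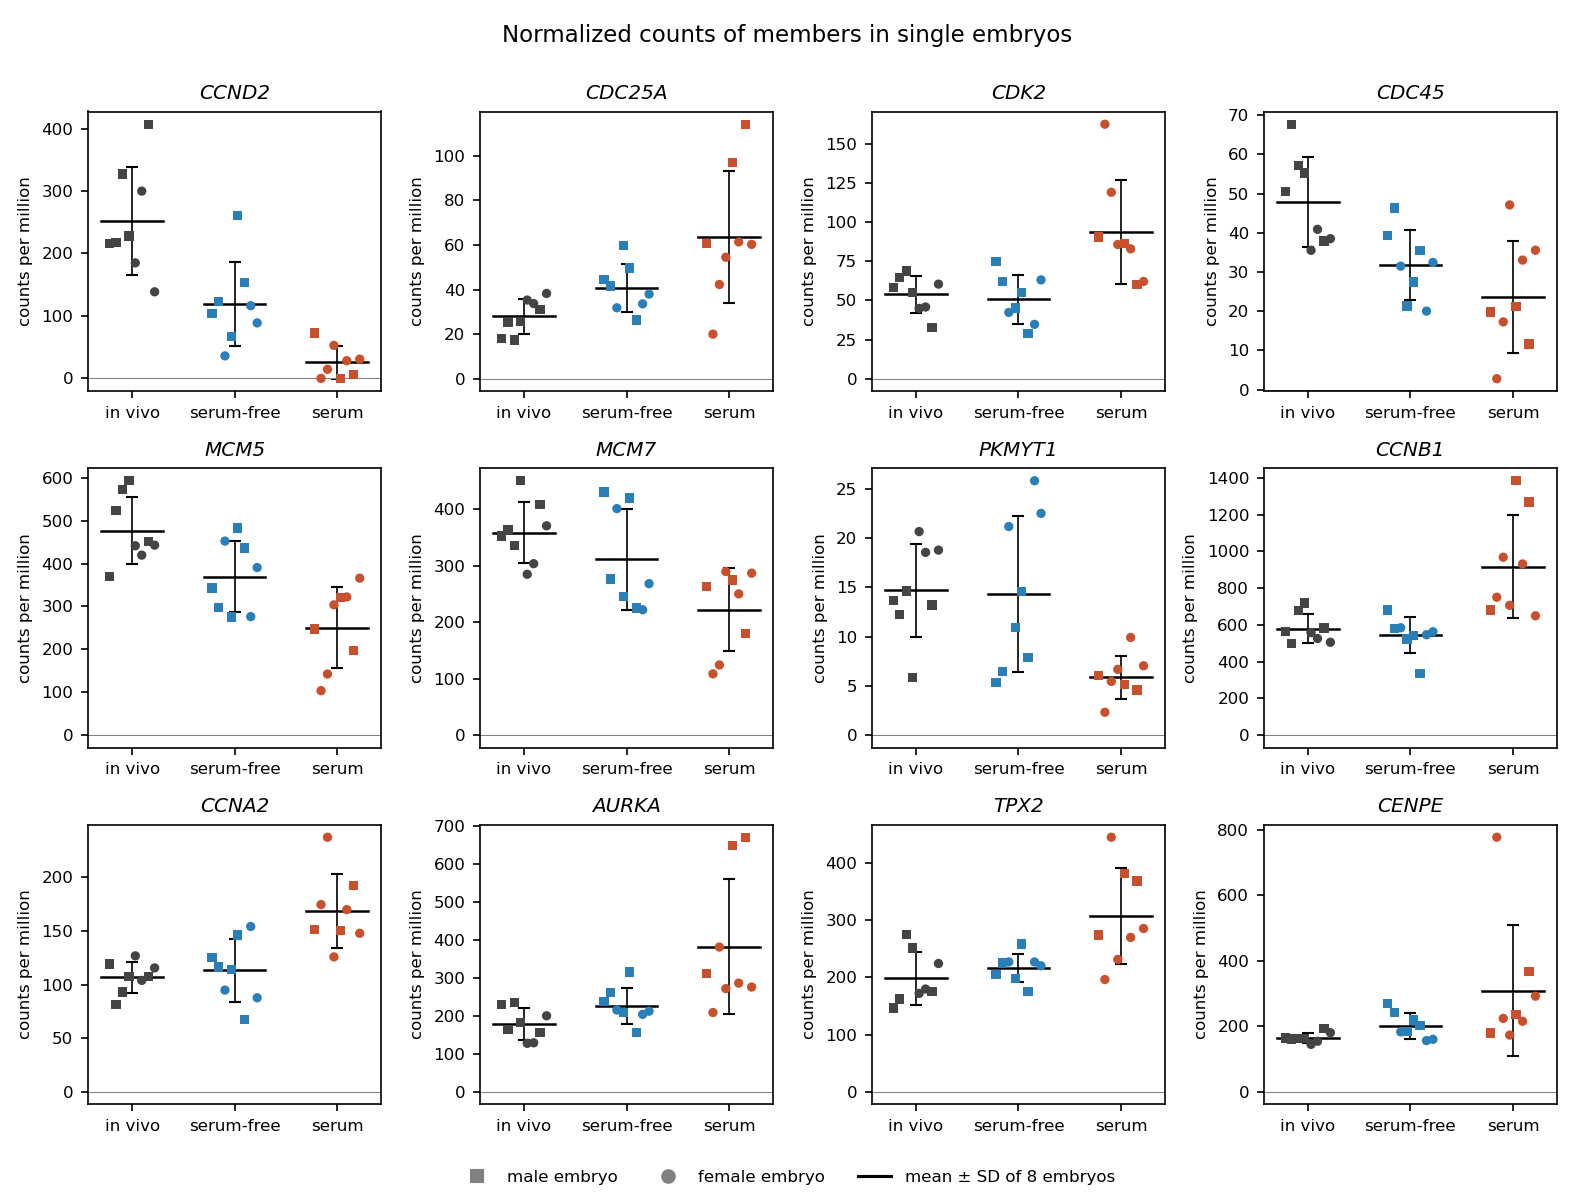
CPM of 12 members in each of the 24 embryos, grouped by culture, with squares for male and circles for female embryos and the mean ± SD of 8 embryos in black. In CCND2 and MCM5 every serum embryo lies below every in vivo embryo, and how many of all genes separate in this way was not counted. CENPE in serum has 1 embryo, B2, far above the others.

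The genes of origin recognition and loading had 2 members that rose in serum and 6 tested members that did not pass. ORC6, the smallest subunit of the origin recognition complex, was between 68.7 and 117 CPM in vivo and between 99.3 and 201 CPM in serum. All 8 serum embryos were above the in vivo median of 97 CPM and 6 were above the highest in vivo embryo. The log2 fold change was 0.59 ± 0.17 (adjusted p = 0.0150). CDC6, the ATPase that loads the MCM ring together with CDT1, was between 33.3 and 57.2 CPM in vivo and between 50.5 and 88.2 CPM in serum (log2 fold change 0.54 ± 0.18, adjusted p = 0.0287). Only B5 and B2 lay above the highest in vivo embryo, and without those 2 the log2 fold change was 0.36 (adjusted p = 0.0900).

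Among the other subunits of the complex no direction was shared. The largest difference was that of ORC5 (log2 fold change 0.83 ± 0.36, adjusted p = 0.0860), with 8.6 CPM in B1 and 67.4 CPM in B5, and the smallest that of ORC1 (0.11 ± 0.21, adjusted p = 0.729), the subunit that binds and hydrolyses ATP. ORC2 was at 0.93 CPM in B2 and 1.23 CPM in B7 and at 8.18 to 34.1 CPM in the other serum embryos, against 15.6 to 46.2 CPM in vivo (log2 fold change -0.69 ± 0.53, adjusted p = 0.337). GMNN, which encodes geminin, the inhibitor of CDT1, ranged from 347 to 502 CPM in vivo and from 259 to 399 CPM in serum (log2 fold change -0.31 ± 0.12, adjusted p = 0.0671). CDT1 itself had at most 48 counts in any embryo and was not tested.

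The MCM group had the lowest median of the roles. Of its 8 members, 3 fell in serum and 5 did not pass, with 7 of 8 log2 fold changes below 0 and a median of -0.47. CDC45, which is among those that fell, and MCM2 met the count limit only through the in vivo embryos. The count of members that fell and the median of the group were therefore in part chosen by the limit. MCM5, a subunit of the helicase ring, was between 369 and 593 CPM in vivo (median 447), between 276 and 483 CPM serum-free (median 367) and between 104 and 366 CPM in serum (median 276). No serum embryo reached the lowest in vivo embryo, the smallest gap being that between B8 (365.9 CPM) and A1 (369.3 CPM). This was 1.92-fold lower (log2 fold change -0.94 ± 0.21, adjusted p = 0.00384).

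MCM7, another ring subunit, was between 285 and 450.4 CPM in vivo and between 109 and 289.7 CPM in serum, with 6 of 8 serum embryos below the lowest in vivo embryo (log2 fold change -0.70 ± 0.19, adjusted p = 0.0115). CDC45, which binds the loaded ring and turns it into a working helicase, was between 35.5 and 67.7 CPM in vivo (median 45.7) and between 2.79 and 47.1 CPM in serum (median 20.5). B2 was lowest and B4 highest in serum, B4 lying within the in vivo range. The log2 fold change of CDC45 was -1.03 ± 0.36 (adjusted p = 0.0393), and this call was not firm: without B2 and B5 the value was -0.78 (adjusted p = 0.0423), and leaving out any one of A1, A2, A3, A4, A6, A7, A8, B1, B3, B5 or B7 took the adjusted p-value to between 0.0508 and 0.0802.

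The other ring subunits did not pass. MCM6 had the smallest difference of the group, with a median of 359 CPM in vivo and 362 CPM in serum (log2 fold change 0.00 ± 0.20, adjusted p = 0.994) and a range in serum from 189.6 CPM in B3 to 595 CPM in B5. MCM3 and MCM4 had log2 fold changes of -0.30 ± 0.17 (adjusted p = 0.200) and -0.12 ± 0.27 (adjusted p = 0.763). MCM2 was at 1.86 CPM in B2 and between 27.0 and 58.8 CPM in the other serum embryos, against 46.7 to 87.6 CPM in vivo (log2 fold change -0.64 ± 0.37, adjusted p = 0.196). MCM10, which helps to start unwinding, was the one member of the group above 0, at 0.23 ± 0.16 (adjusted p = 0.302). The median member of the group, relative to the in vivo mean, lay between -1.04 and -0.08 on the log2 scale in the serum embryos. In the in vivo embryos it lay between -0.18 and 0.25. These medians include CDC45 and MCM2, which met the count limit only through the in vivo embryos.

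**Figure D4:**
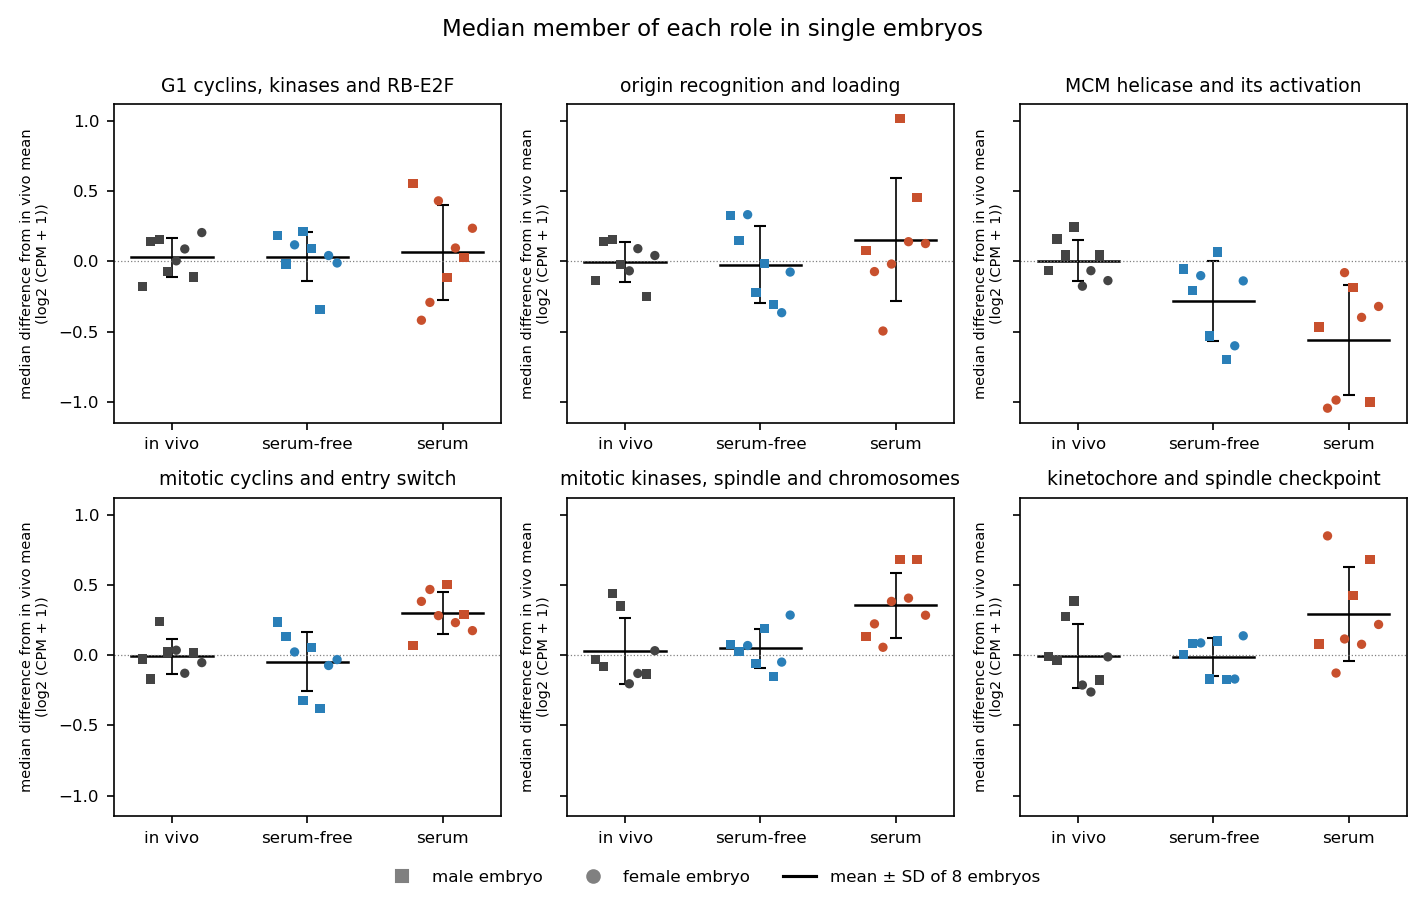
Median over the tested members of each role of their log2 (CPM + 1) difference from the in vivo mean, in each embryo, with squares for males, circles for females and the mean ± SD of 8 embryos in black. Serum embryos lie low in the panel of the MCM helicase, between -1.04 and -0.08, and high in the panel of mitotic cyclins, between 0.07 and 0.50, and overlap with in vivo embryos in every panel.

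Mitotic cyclins and the switch for mitotic entry included 2 genes that rose in serum, 1 that fell and 6 that did not pass. CCNA2 encodes cyclin A, which acts from S phase into early mitosis. It was between 81.4 and 127 CPM in vivo and between 126 and 238 CPM in serum, and 7 of 8 serum embryos lay above every in vivo embryo, B4 being the exception (log2 fold change 0.66 ± 0.15, adjusted p = 0.00331). CCNB1, the cyclin whose binding to CDK1 starts mitosis, was between 500.2 and 719 CPM in vivo (median 561) and between 649 and 1384 CPM in serum (median 841), with the highest values in B5 and B7. Its log2 fold change was 0.66 ± 0.16 (adjusted p = 0.00683).

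PKMYT1, the membrane-bound kinase that keeps CDK1 inactive until mitosis, was lower in serum. It was a gene of low counts, between 5.84 and 20.7 CPM in vivo (median 14.1) and between 2.33 and 9.91 CPM in serum (median 5.74). All 8 serum embryos were below the in vivo median, and the ranges overlapped because A4 was at 5.84 CPM. This was 2.49-fold lower (log2 fold change -1.32 ± 0.31, adjusted p = 0.00438). WEE1, the nuclear kinase with the same substrate, had a log2 fold change of -0.38 ± 0.37 (adjusted p = 0.456). CDK1 itself was between 99.2 and 242 CPM in vivo and between 119 and 295 CPM in serum (log2 fold change 0.34 ± 0.19, adjusted p = 0.182). The 2 phosphatase genes for mitotic entry did not pass: CDC25C had the smallest difference of the group (-0.03 ± 0.18, adjusted p = 0.920), and CDC25B, at 23.3 CPM or below in every embryo, had a log2 fold change of 1.02 ± 0.45 (adjusted p = 0.0933). CCNB2 had a log2 fold change of 0.06 ± 0.17 (adjusted p = 0.822), and CDK7, which phosphorylates and activates other CDKs, one of 0.66 ± 0.28 (adjusted p = 0.0790), with its highest levels in B2 (168 CPM) and B5 (127 CPM).

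Of the 9 mitotic kinases, spindle and chromosome proteins, AURKA, TPX2 and PLK1 rose in serum, PLK4 fell and 5 did not pass. AURKA encodes the Aurora kinase of centrosomes and spindle poles. It was between 127 and 235 CPM in vivo (median 173) and between 208 and 669.8 CPM in serum (median 299). Except for B2, every serum embryo exceeded the highest in vivo embryo, and B5 and B7, both male, were far above the rest at 648 and 669.8 CPM. This was 2.13-fold higher (log2 fold change 1.09 ± 0.23, adjusted p = 0.00259), and without B2 and B5 the value was 1.06 (adjusted p = 0.00120).

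TPX2, the spindle protein that activates AURKA, was between 146 and 275 CPM in vivo and between 196 and 445 CPM in serum (log2 fold change 0.62 ± 0.18, adjusted p = 0.0148), with 4 of 8 serum embryos above the in vivo range. PLK1, the Polo kinase that promotes mitotic entry and spindle assembly, was between 72.8 and 167 CPM in vivo and between 128 and 206 CPM in serum (log2 fold change 0.55 ± 0.17, adjusted p = 0.0243). PLK4, the kinase that sets centriole number, went the other way, from a median of 87.5 CPM in vivo to 53.7 CPM in serum (log2 fold change -0.58 ± 0.19, adjusted p = 0.0282). This did not hold in every setting: without B2 and B5 the adjusted p-value of PLK4 was 0.0518, and leaving out A2, A3, A4, A8 or B5 alone took it to between 0.0509 and 0.0764. AURKB and BIRC5, which belong to the chromosomal passenger complex, KIF11, the kinesin that pushes spindle poles apart, TOP2A, which disentangles chromosomes, and the proliferation marker MKI67 had log2 fold changes between -0.16 and 0.30. MKI67 was between 56.6 and 116 CPM in vivo and between 33.2 and 143 CPM in serum (log2 fold change 0.11 ± 0.29, adjusted p = 0.801).

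In the kinetochore and checkpoint group 1 of 8 tested members passed. CENPE, the motor that carries chromosomes to the spindle equator, was between 145 and 192 CPM in vivo and between 173 and 778 CPM in serum, where 6 of 8 embryos exceeded the in vivo range. B2, at 778 CPM, lay far above the next embryo, B7, at 367 CPM. The log2 fold change of CENPE was 0.91 ± 0.26 (adjusted p = 0.0154), and without B2 alone it fell to 0.56 while still passing (highest adjusted p = 0.0275 when leaving out single embryos). The checkpoint genes BUB1, BUB1B, BUB3 and MAD2L1 and the anaphase activator CDC20 had log2 fold changes between 0.27 and 0.48 with adjusted p-values between 0.0731 and 0.265. CENPF had the smallest difference, -0.09 ± 0.17 (adjusted p = 0.708). TTK, a checkpoint kinase, had a median of 40.2 CPM in vivo and 25.6 CPM in serum (log2 fold change -0.63 ± 0.31, adjusted p = 0.135), and was at 5.12 CPM in B2.

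Serum-free embryos were compared with the same in vivo embryos. Of the 50 members tested, 1 was called, CCND2 (2.00%, against 2.2% of all 7314 genes tested, 161 genes, of which 0.588% were lower), and no further member passed at any fold change (2.00% against 5.82%). The median log2 fold change of the members was -0.05, against 0.00 over all genes. CCND2 was lower in 7 of 8 serum-free embryos than the in vivo median, and C6, at 260.5 CPM, was above that median (log2 fold change -1.08 ± 0.29, adjusted p = 0.0307). This call was lost when A3, A7, A8, C1, C4 or C10 was left out (adjusted p-values between 0.0515 and 0.0691), and when C3 was left out CCND2 passed without reaching 2-fold.

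Apart from CCND2, the members that passed in serum did not pass in serum-free embryos. MCM5 had a log2 fold change of -0.36 ± 0.13 (adjusted p = 0.117), CDC45 one of -0.59 ± 0.20 (adjusted p = 0.0823) and PLK4 one of -0.63 ± 0.24 (adjusted p = 0.120). Values for CDC25A and AURKA were 0.54 ± 0.21 (adjusted p = 0.135) and 0.35 ± 0.15 (adjusted p = 0.173). CCNB1, CDK2, ORC6 and PKMYT1 were between -0.08 and -0.02. CCND3, tested here, was between 5.33 and 22.7 CPM in serum-free embryos and between 0.198 and 7.92 CPM in vivo (log2 fold change 1.36 ± 0.42, adjusted p = 0.0613). It met the count limit only through the serum-free embryos, so that its higher value there was in part chosen by the limit. Because both comparisons use the same 8 in vivo embryos, these values are set side by side and not compared further.

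Serum embryos were therefore also compared with serum-free embryos directly. Of 51 members tested, CCND2 and PKMYT1 were called, both lower in serum, which is 3.92% against 8.91% of all 7181 genes tested (640 genes, 5.36% lower). Both met the count limit only through the serum-free embryos, where they were higher. Of the 43 members that met it in both groups 0 were called, against 6.49% of all 5642 genes that did so. At any fold change 7 of these 43 members passed, while 460 of the 5642 genes passed higher and 444 lower. Of all 51 members tested, 7 were higher in serum at any fold change (CDK2, ORC6, CCNA2, CCNB1, AURKA, TPX2 and BUB3). CCND2 and PKMYT1 were lower, which makes 17.6% against 16.3% of all genes (8.29% higher and 8.02% lower). This count of 9 was 3 to 5 when any one of B3, B7, C2, C4, C7, C8 or C10 was left out, 11 without B1, and 6 without B2 and B5, where CCNA2 (adjusted p = 0.0533), ORC6 (adjusted p = 0.0565) and BUB3 (adjusted p = 0.126) no longer passed. When single embryos were left out, TPX2 was lost in 12 of 16 fits, CCNA2 and BUB3 in 8 each and AURKA in 6, while CDK2, CCNB1 and ORC6 passed in every one. The median log2 fold change of the members was 0.25, against 0.02 over all genes, and 0.11 without B2 and B5.

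CCNB1 had the lowest adjusted p-value of the members in this comparison. In 7 of 8 serum embryos it was above the highest serum-free embryo (680.2 CPM), in B1 only narrowly (680.4 CPM), the remaining one, B8, being at 649 CPM, and the log2 fold change was 0.74 ± 0.18 (adjusted p = 0.0127). CDK2 and ORC6 had log2 fold changes of 0.88 ± 0.24 (adjusted p = 0.0206) and 0.61 ± 0.18 (adjusted p = 0.0264), in each case with 6 of 8 serum embryos above all serum-free embryos. CCND2 had one of -2.23 ± 0.73 (adjusted p = 0.0429), and 6 of 8 serum embryos lay below the lowest serum-free embryo, which was at 36.1 CPM.

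PKMYT1 was at 5.33 to 25.8 CPM in serum-free embryos and at 2.33 to 9.91 CPM in serum embryos (log2 fold change -1.29 ± 0.38, adjusted p = 0.0272). Both calls were close to the limit: CCND2 lost its call when any one of C1, C2, C4, C6, C7, C8, C10, B3, B6, B7 or B8 was left out (adjusted p-values between 0.0508 and 0.0879), PKMYT1 when C3, C8, C10 or B7 was left out (0.0528 to 0.0607), and PKMYT1 also without B2 and B5 (adjusted p = 0.0728). CDC25A and the MCM genes did not pass here, MCM5 having a log2 fold change of -0.58 ± 0.23 (adjusted p = 0.0866) and CDC25A one of 0.63 ± 0.28 (adjusted p = 0.118).

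Male and female embryos were compared with in vivo embryos of their own sex. In males, 4 of 51 members tested were called between 3 serum and 5 in vivo embryos, 7.84% against 13.3% of all 7762 genes tested, CDC25A and AURKA being higher and CCND2 and CDC45 lower, and 10 passed at any fold change, against 19% of all genes. CCND2 met the count limit only through the in vivo males, so that its lower value in serum males was in part chosen by the limit. The count at any fold change was 22 without B1, 6 without A8, 5 without A2 and 4 without B7. CDC25A was at 60.8, 97.1 and 114 CPM in the serum males B1, B5 and B7 and at 17.4, 18.0, 25.1, 25.6 and 31.0 CPM in the in vivo males (log2 fold change 1.94 ± 0.29, adjusted p = 0.00199). In serum females it was at 20.0, 42.3, 54.5, 60.3 and 61.4 CPM, against 33.7, 35.3 and 38.3 CPM in vivo (log2 fold change 0.43, adjusted p = 0.519). The male groups did not overlap and the female groups did, because of B2, and how many of all genes separate in this way was not counted. The male count of called members rose to 10 when B1 was left out. No count over all genes is given for that fit, so this rise cannot be set against genes in general. B1 was the serum male nearest to the in vivo embryos in CCND2, AURKA and CDC25A. In CDC45, the remaining called member, B5 was nearer (21.1 CPM, against 19.8 CPM in B1). The cause of the rise was not tested.

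In females, no member was called in serum (0.418% of all 8138 genes tested were). An unadjusted p-value under 0.05 was found in 13 of 51 members and in 1719 of all 8138 genes. edgeR's exact test called 2 members and 467 of all genes, and DESeq2 called 1 member and 585 of all genes. Side by side, the log2 fold change of CCND2 was -3.02 ± 0.91 in females (adjusted p = 0.125) and -3.44 ± 1.03 in males (adjusted p = 0.0370), and that of PKMYT1 was -1.59 ± 0.46 in females (adjusted p = 0.117) and -1.19 ± 0.48 in males (adjusted p = 0.104). CCND2 in both sexes and PKMYT1 in females met the count limit only through the in vivo embryos. These lower values in serum were therefore in part chosen by the limit. With B2 left out 2 members were called in females, a count also given without that over all genes. In serum-free embryos 0 members were called in males (0.966% of all 7662 genes) and 0 in females (0.304% of all 8211 genes). An unadjusted p-value under 0.05 was found in 10 of 51 members and 1377 of all genes in males. In females it was found in 6 of 52 members and 1153 of all genes. The exact test and DESeq2 called 1 member each in males, with 199 and 201 of all genes. In females they called 2 members each, with 192 and 181 of all genes. PLK4 was the one member that passed at any fold change in serum-free males (1.76% of all genes did), with a log2 fold change of -0.94 ± 0.23 (adjusted p = 0.0488).

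The difference between the sexes in the response to culture was tested as an interaction. For serum, 0 of 51 members and 0 of all 8446 genes passed (0% called), and for serum-free medium 0 of 52 members and 0 of all 8425 genes, by edgeR's quasi-likelihood test. Over all genes 436 and 555 had an unadjusted p-value under 0.05, and DESeq2 called 0 members in each. CDC25A was the one member with an unadjusted p-value under 0.05 for serum (adjusted p = 0.664), with a log2 difference of 1.54 ± 0.46 between the male and the female response. For serum-free medium 7 members had an unadjusted p-value under 0.05, led by MCM6 (difference -0.90 ± 0.31, adjusted p = 0.680). Between males and females of the same culture no member was called in vivo (0.653% of all genes), in serum (0.173%) or in serum-free medium (0.139%), and 0 were called by DESeq2. An unadjusted p-value under 0.05 was found in vivo in 10 of 51 members and 1077 of all 7963 genes. In serum it was found in 3 of 49 members and 470 of 7534 genes, and in serum-free medium in 5 of 51 members and 634 of 7918 genes. The smallest adjusted p-value was that of MCM6 in vivo, where the 5 males were at 349.6, 368, 401, 453 and 462 CPM and the 3 females at 238, 251 and 304 CPM, without overlap (log2 fold change 0.62 ± 0.14, adjusted p = 0.0563). How many of all genes separate in this way between groups of 5 and 3 embryos was not counted.

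A further 122 cell cycle genes outside the 60 were listed by function, of which 116 were found and 103 tested between serum and in vivo embryos. Of these 4 were called higher and 1 lower, and at any fold change 21 were higher and 7 lower, against backgrounds over all genes of 6.43% and 7.34% for the calls and of 14.8% and 13.4% at any fold change. In the list of the anaphase-promoting complex and mitotic exit, 6 of 16 tested genes rose and 1 fell. FBXO5 encodes EMI1, the inhibitor that keeps the anaphase-promoting complex off until mitosis. It was between 41.8 and 78.9 CPM in vivo, between 16.8 and 62.2 CPM serum-free and between 109.9 and 420.2 CPM in serum, so that serum embryos did not overlap with either group (log2 fold change over in vivo 1.73 ± 0.28, adjusted p = 0.000362). The number of all genes that separate in this way was not counted. ESPL1, which encodes separase, the protease that cuts cohesin at anaphase, was between 54.3 and 125 CPM in vivo and between 121 and 409.8 CPM in serum (log2 fold change 1.19 ± 0.24, adjusted p = 0.00189), and PTTG1, its inhibitor securin, rose by 0.96 ± 0.18 on the log2 scale (adjusted p = 0.00119).

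Among the other lists, 6 of 29 genes of the replication machinery rose and 4 fell in serum, none by 2-fold. They included PCNA, the sliding clamp of DNA polymerases (log2 fold change 0.40 ± 0.13, adjusted p = 0.0323), and GINS2, a partner of CDC45 in the helicase (-0.85 ± 0.20, adjusted p = 0.00400). Of 16 further kinetochore genes 3 rose and 1 fell, DSN1 being called (1.12 ± 0.32, adjusted p = 0.0143). Of 13 cohesin and condensin genes 0 passed. An unadjusted p-value under 0.05 was found in 5 of them and in 3023 of all 7339 genes. Of 21 further regulators 5 rose and 1 fell, with the MuvB subunit gene LIN52 called higher (1.05 ± 0.34, adjusted p = 0.0270) and the phosphatase gene CDKN3 called lower (-1.75 ± 0.46, adjusted p = 0.00856) at 0 to 4.35 CPM in serum against 4.32 to 9.83 CPM in vivo. CDKN3 met the count limit only through the in vivo embryos, so that its lower value in serum was in part chosen by the limit. Of 8 genes of the central spindle and cytokinesis 1 rose, ECT2 (0.58 ± 0.21, adjusted p = 0.0449). In serum-free embryos 5 of the 103 genes tested rose (CCNG1, CKS1B, MIS12, TFDP1 and TFDP2) and 0 fell, against 3.38% and 2.45% of all genes, with TFDP1, the partner of E2F proteins, called (log2 fold change 1.06 ± 0.27, adjusted p = 0.0277).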

How the data were processed

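RNA of 24 single early blastocysts was sequenced. The values are raw counts that the authors deposited: after trimming and alignment to the cow genome (UMD 3.1 in the submitters' processing notes), uniquely aligned fragments in exons were summed by gene, with no normalization. The library kit does not mark strand, so reads of overlapping genes cannot be told apart. All 24 columns were matched to embryos by name (0 were left over). In R 4.3.3, groups were compared by the quasi-likelihood test of edgeR 4.0.16 after TMM normalization, each fit holding only the groups compared, and p-values were adjusted by Benjamini-Hochberg over every gene tested. A gene needed 15 counts in every embryo of at least 1 group. A call needed 2-fold or more and an adjusted p-value under 0.05. SEs are approximate, from the estimate and its F statistic. CPM values are TMM-normalized. A log2 fold change of 0.00 stands for an absolute value under 0.005.

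Per embryo there were 3253051 to 9000447 counts, and the smallest share a count of 0 excludes was 3 counts of the total. This limit covers counting error only. No 2 embryos of a group agreed within sampling noise (lowest chi-square per degree of freedom 16.0). Replicate numbers were not taken as pairs, since deviations of same-numbered embryos correlated between -0.13 and 0.09. The embryos shared cows or in vitro experiments, so p-values measure the spread between these embryos.

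The members and lists were chosen with earlier results of these data known. Full values are given for members that passed in a comparison over both sexes and for the largest and the smallest difference in each role, and of other cell cycle genes for those called. FBXO5, ESPL1, DSN1, LIN52, CDKN3 and TFDP1 were named by that rule, and PTTG1, PCNA, GINS2, ECT2, CCNG1, CKS1B, MIS12 and TFDP2 after their values were seen. ORC5L and CDC45L were matched through synonyms of RefSeq. Alternatives were edgeR's exact test, DESeq2 1.42.0, other normalizations and count limits, a single fit, thinned counts, sex as a covariate, a replicate block and leaving out embryos. The fits were tested on simulated data. Plots were drawn with matplotlib 3.10.9.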

Additional observations from a re-analysis of the deposited data

Results flagged for a closer look

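In each culture, the lowest and the highest of the 8 embryos were compared with their nearest neighbour for the 17 members given in full, 51 tests in all, of which 2 passed the 95% limit, when chance alone gives about 1 in 20. CCNB1 was low in the serum-free embryo C7, at 334 CPM, against 524 CPM in the nearest embryo and 680.2 CPM in the highest, a gap of 0.548 of the whole range. C7 also had the highest trophectoderm marker sum of any embryo, 27964 CPM. As a library it stood apart, with the lowest normalization factor of all embryos (0.862). Its median correlation with its own culture, 0.859, was the lowest among the serum-free embryos. CENPE was high in the serum embryo B2, at 778 CPM, against 367 CPM in the nearest embryo and 173 CPM in the lowest, a gap of 0.679 of the range. B2 correlated least with its own culture and had the highest oocyte marker sum, 149 CPM. The part of these marker differences in either value was not tested.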

How the results depend on the processing

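Signs under the alternatives were followed only in the comparisons over both sexes, for the median of the members and for members that passed in any of them. Within a sex and for the other cell cycle genes they were not followed. No followed value that passed its test changed sign under any alternative. Values near 0 that did not pass did so when single embryos were left out or in other settings, namely the median of the members between serum-free and in vivo embryos (-0.09 to 0.01 when leaving out one embryo, above 0 without C7), CDK2, ORC6 and PKMYT1 in that comparison and PLK4 between serum and serum-free embryos. In the comparison of serum with in vivo embryos, 5 members were called, and 2 when both groups had to have 15 counts in each embryo, since 3 of the 5 had too few counts in serum to be tested. Of all genes, 1011 of 7339 were called, and 544 of 5743 under that limit. Leaving out one embryo at a time gave 3 (without B5 or B7) to 7 (without B1) called members. AURKA, CCNA2, CCND2, CDC25A, CDK2, MCM5, MCM7, PKMYT1 and TPX2 kept their side of the adjusted p-value in every alternative run. Between serum-free and in vivo embryos 1 member was called. The alternatives gave 2 by edgeR's exact test, 2 by DESeq2, 0 in 1 fit over 24 embryos and 0 to 1 when leaving out one embryo (0 without A3, A7, A8, C3, C4 or C10). Of all genes, 161 were called, against 208 by the exact test, 199 by DESeq2 and 74 in the single fit. Between serum and serum-free embryos 2 members were called, but 1 with total counts as the only scaling, 0 without a count limit, 0 with 15 counts in both groups, 1 with sex as a covariate, 1 without B2 and B5 together, where the median fell from 0.25 to 0.11, and 0 to 2 when leaving out one embryo (0 without B7, C8 or C10, and 1 without B3, B6, B8, C2, C3, C4, C6 or C7). In serum females 0 were called, but 2 by the exact test, 1 by DESeq2, 2 in 1 fit over 24 embryos and 0 to 2 when leaving out one embryo (2 without B2). Of all genes, 34 were called there, against 467 by the exact test, 585 by DESeq2 and 461 in the single fit. In serum males leaving out one embryo gave 3 to 10 (10 without B1). In serum-free males 0 were called, but 1 by the exact test, 1 by DESeq2, 1 without a count limit and 0 to 2 when leaving out one embryo (2 without C7, 1 without A1 or C6). Of all genes, 74 were called there, against 199 by the exact test, 201 by DESeq2 and 86 without a count limit. In serum-free females 0 were called, but 2 by the exact test, 2 by DESeq2 and 1 without a count limit. Of all genes, 25 were called there, against 192 by the exact test, 181 by DESeq2 and 232 without a count limit. For fits that left out one embryo, here or above, no count over all genes is given. The cause of these shifts was not tested.

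The replicate numbers of the labels do not pair embryos of different cultures. With the number as a replicate block, 4 members were called between serum and in vivo embryos, 0 between serum-free and in vivo embryos and 0 between serum and serum-free embryos, over the 7 numbers that each pair of cultures shares. Of all genes, 82 of 7463 were then called between serum-free and in vivo embryos and 29 of 7306 between serum and serum-free embryos.

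Leaving out B2 and B5 together was added after the data were seen. Low counts limit CCND3, CDC25B, CCNE1, RBL1 and CDT1, and groups of 3 limit the values within a sex.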
